A study of Homo sapiens with 6 samples.

Results

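Forkhead genes encode transcription factors that share a winged-helix DNA-binding domain, the forkhead box, and are grouped by letter into subfamilies. Several open closed chromatin and specify lineages, FOXO members answer to PI3K and AKT signalling, FOXM1 drives genes of mitosis, and FOXD3 is a neural crest factor known to hold back MITF in the melanocyte lineage. Members were taken as every protein-coding gene of the count table whose name begins with FOX, a letter from A to S and a digit, which gave 50 of 58870 genes. One of them, FOXL2NB, is named after its neighbour FOXL2 and does not encode a forkhead factor. It was kept in the counts because the naming rule holds it, and it had 9 counts in all in each group.

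The libraries were 6 in number and came from WM164, an established human melanoma cell line, with 3 replicates per group. The control group overexpressed green fluorescent protein (GFP), and the other overexpressed T-MGM, a tethered dimer in which the M isoform of the transcription factor MITF and the small MAF protein MAFG are joined by a flexible linker of 22 residues. Per the study's methods the backbone was lentiviral with an EF1α promoter and blasticidin selection, so each group is a transduced and selected culture. No source states whether replicates came from separate transductions or cultures, and p-values then measure only the spread between these libraries. Total counts ranged from 35057239 to 38738065 under GFP and from 44577774 to 59250663 under T-MGM, so depth and group ran together. All 7 melanocytic markers examined were measured in both groups and passed the test, where 38.4% of all genes tested did (49.4% of protein-coding ones). The lower ones were led by DCT, an enzyme of melanin synthesis, which went from 11460 ± 126 to 2051 ± 88.8 normalized counts (SD, n = 3 each; log2 fold change -2.49), then MLANA at -0.68, TYR at -0.35 and S100B at -0.21, and the higher ones, SOX10, MITF and PMEL, lay between 0.05 and 0.11. The part of these markers in the forkhead results was not tested. The parts of the construct give no check of the labels, because the counts of MITF and MAFG had log2 fold changes of 0.08 (DESeq2 adjusted p = 4.80e-07) and -0.06 (0.236), and reads of the construct and of the endogenous genes were not separated.

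A member was called expressed when at least 3 libraries had 10 or more counts. By that measure 21 of the 50 genes were expressed and 29 were not. Of the latter, 5 had no count in any library, namely FOXB2, FOXD4L3, FOXI3, FOXN1 and FOXR1. The FOXA, FOXB, FOXH, FOXI, FOXL, FOXQ, FOXR and FOXS subfamilies had no expressed member. The genes nearest to the threshold from inside were FOXE1 and FOXD4L4, each with exactly 3 libraries at 10 or more counts. Those of FOXE1 were the 3 T-MGM libraries alone. From outside, FOXH1 reached 10 counts in 2 libraries, FOXA3 and FOXD4L6 in 1. Asking for 10 counts in every library left 19 expressed genes, and asking for 0.5 TPM in 3 libraries left 18.

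Levels between genes were compared in TPM, which accounts for transcript length. FOXM1 was the most abundant member, at 88.5 ± 3.40 TPM under GFP and 93.6 ± 5.17 TPM under T-MGM (SD, n = 3 each), and made up 33.6% and 37.2% of the summed forkhead TPM. FOXJ3, FOXK2 and FOXN2 followed in GFP with means of 38.2, 38.1 and 30.03 TPM. FOXJ3 and FOXK2 lay within each other's spread there. FOXP4, FOXK1, FOXJ2 and FOXC1 had means between 8.28 and 10.95 TPM in GFP, and FOXP1, FOXO3, FOXD3, FOXD1 and FOXO1 between 3.98 and 6.07 TPM. The remaining 8 expressed members were at 1.31 TPM or less in GFP. The sum over the family was 257 to 272 TPM under GFP and 247 to 260 TPM under T-MGM, ranges that overlap.

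**Figure D1:**
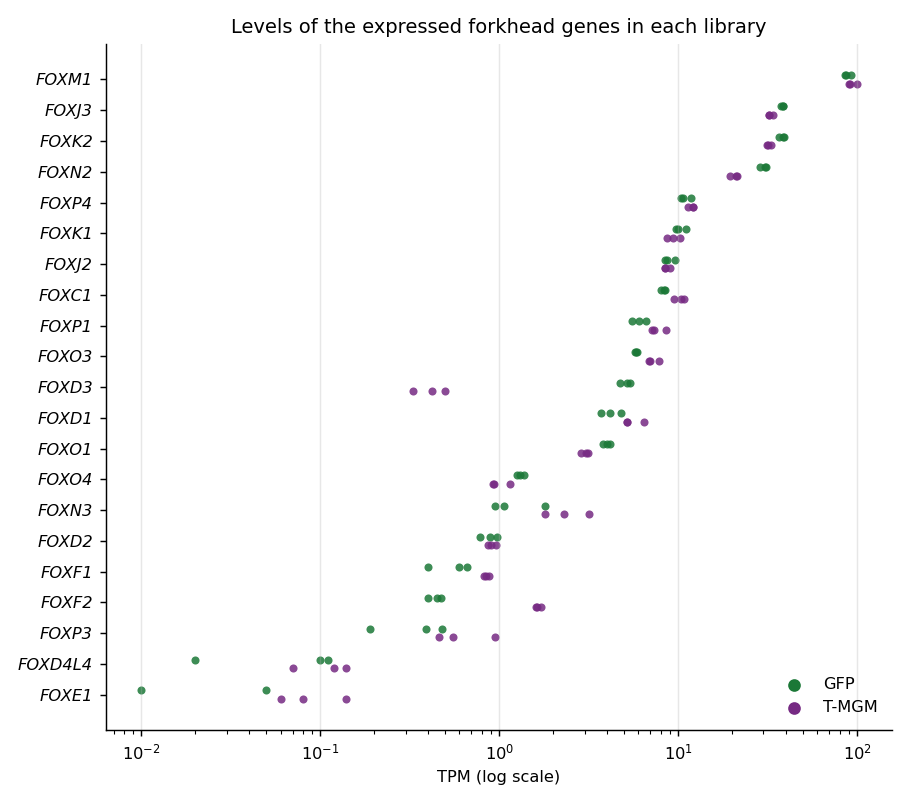
TPM of the 21 expressed forkhead genes in each of the 3 GFP (green) and 3 T-MGM (purple) libraries, on a log axis and ordered by the GFP mean. FOXE1 in GFP replicate 1 had a TPM of 0 and is not drawn. FOXD3 stands apart from its neighbours in the order, with all T-MGM libraries under 1 TPM and all GFP libraries above 4 TPM.

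The T-MGM and GFP libraries were then compared with DESeq2 over the whole table. An adjusted p was available for 29 of the 50 members. Of these, 19 passed at an adjusted p of at most 0.05, 12 higher and 7 lower in T-MGM, where 38.4% of all 19135 genes tested passed (49.4% of the protein-coding ones), split evenly by direction (19.2% each, and 24.7% each of the protein-coding ones). The excess of higher members was smaller or turned in limma on TPM values, with 6 higher and 5 lower on TPM plus 0.1 or plus 1, and 3 higher and 6 lower on TPM plus 1 without a filter on low values. Over genes averaging 50 normalized counts or more, the median log2 fold change was -0.13 to -0.15 in those fits and -0.01 as reported. The split of all genes by direction in those fits is not given here. The threshold of the study, which adds a fold change over 2, called 5 members, against 4.63% of all genes tested and 4.97% of protein-coding ones. By direction, 3 members were called higher, against 3.26% of all and 3.84% of protein-coding genes, and 2 lower, against 1.36% and 1.13%. The called members were FOXF2, FOXN3 and FOXE1, all higher, and FOXD3 and FOXD4, both lower, and 2 of these, FOXE1 and FOXD4, rested on very low counts. For 22 of the 29 members no GFP library lay within the range of the T-MGM libraries or the reverse, which held for 46.8% of all genes tested and 56.8% of protein-coding ones. The median log2 fold change of the 29 members was 0.19 and that of all genes tested was -0.0027. Most members that passed thus changed by less than 2-fold, and the family moved in both directions. Without GFP replicate 1 the number called was 3, since FOXE1 no longer passed and FOXD4 had no adjusted p.

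**Figure D2:**
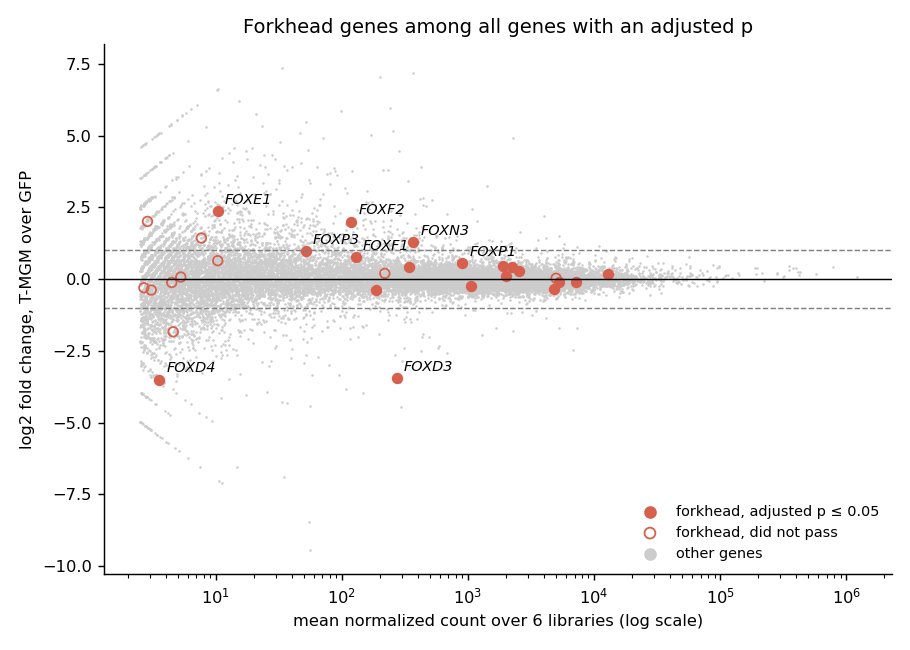
Log2 fold change of T-MGM over GFP against the mean normalized count (log axis) for every gene with an adjusted p (grey) and for the 29 forkhead genes among them (red, filled where the adjusted p was at or under 0.05). Dashed lines mark a 2-fold change. FOXD3 lies furthest below 0 among members of similar count, and FOXE1 and FOXD4 sit at the low-count end.

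FOXD3 (ENSG00000187140.5; chromosome 1, 63322567 to 63325128, GRCh38) specifies neural crest cells and delays their commitment to the melanocyte fate. It had 529, 506 and 458 normalized counts in GFP replicates 1 to 3 and 35.6, 53.7 and 46.5 in T-MGM replicates 1 to 3. Every T-MGM library lay far below every GFP library, and the spread within each group was small beside the gap. The raw counts were 441, 467 and 401 under GFP and 39, 55 and 63 in T-MGM, before scaling for the deeper T-MGM libraries. FOXD3 thus fell 11.01-fold (95% limits 8.87 to 13.7), a log2 fold change of -3.46 ± 0.16 (SE, n = 3 each; DESeq2 adjusted p = 1.27e-102). In TPM it went from 5.10 to 0.417 on average. The 54 other genes measured within 10 Mb had a median log2 fold change of -0.14, so its neighbourhood did not move by a like amount. In bulk libraries a loss of FOXD3 in all cells and a loss of cells that express it cannot be told apart.

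FOXD3-AS1 (ENSG00000230798.5), a noncoding gene transcribed from the opposite strand at the FOXD3 locus, was lower as well. It had 63.6, 57.4 and 52.5 normalized counts under GFP and 21.0, 26.3 and 33.2 under T-MGM, groups that do not overlap. Its log2 fold change was -1.10 ± 0.32 (SE, n = 3 each; DESeq2 adjusted p = 0.00194), a 2.14-fold decrease (95% limits 1.39 to 3.29). The limits of the FOXD3 decrease and of the FOXD3-AS1 decrease did not overlap, though the difference between the genes was not tested. Exons of the genes overlap in the annotation, and the sources disagree on whether the libraries kept strand information, so part of the reads of one could have been counted for the other.

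The 250 bases before the annotated start of FOXD3 were searched for the sequences that MITF is known to bind, CACGTG (the E-box, its own reverse complement) and CATGTG, for the small MAF core TGCTGA and for the forkhead core TGTTTAC, each on both strands. The FOXD3 window held one CACGTG, which begins 56 bases before the start and is set in capitals, and none of the other letters. It is shown because FOXD3 had the largest fall of any expressed member, and the FOXF2 window because FOXF2 had the largest rise of any member above 100 mean normalized counts. No match lay in the FOXF2 window. The AP-1 motif, which the study found most strongly enriched where MAFG and MITF both bind, was not searched for. Both sequences are from RefSeq (GRCh38.p14), plus strand, at chr1:63322317-63322566 and chr6:1389326-1389575.
FOXD3: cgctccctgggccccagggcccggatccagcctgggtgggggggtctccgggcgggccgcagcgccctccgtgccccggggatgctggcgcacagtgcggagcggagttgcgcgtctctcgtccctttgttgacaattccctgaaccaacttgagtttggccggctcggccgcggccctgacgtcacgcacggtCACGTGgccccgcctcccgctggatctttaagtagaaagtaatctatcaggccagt
FOXF2: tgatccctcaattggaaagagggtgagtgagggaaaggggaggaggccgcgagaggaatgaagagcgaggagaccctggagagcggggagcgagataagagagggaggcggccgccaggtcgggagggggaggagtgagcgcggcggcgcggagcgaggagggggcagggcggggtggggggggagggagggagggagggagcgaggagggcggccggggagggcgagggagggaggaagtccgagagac

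A RefSeq window was found for 38 of the 50 members, 18 of them expressed. Of all 27303 promoter windows of this length, 6.49% held CACGTG, 9.54% CATGTG, 14.1% TGCTGA and 2.98% TGTTTAC. The E-box CACGTG was present in 3 of the 38 family windows, those of FOXD3, FOXP4 and FOXK1, and CATGTG in 3, those of FOXD1, FOXD4L3 and FOXD4L4. TGCTGA was found in the window of FOXI1 only, and TGTTTAC in none. The windows of the family were rich in G and C, with a median of 67.0% against 58.0% over all windows. The matches of the other well expressed members are shown with their flanks because they carry the same letters as FOXD3 or the related CATGTG. These libraries do not measure binding, and the part of these letters in the change of any member was not tested. They lie at chr6:41546147-41546176 (plus strand), chr7:4682111-4682140 (plus strand) and chr5:73448811-73448840 (minus strand).
FOXP4: taaagtttggtgCACGTGgttttctctcgc
FOXK1: gctggcgcgcgcCACGTGggctacgctggg
FOXD1: tgacgtgcacacCATGTGacaggccccctt

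Of the other expressed FOXD genes, none passed as lower. FOXD1, a factor of stromal and kidney mesenchyme, had 297, 279 and 289 normalized counts under GFP and 379, 396 and 398 under T-MGM, with every T-MGM library above every GFP library. It rose 1.36-fold (95% limits 1.18 to 1.56; DESeq2 adjusted p = 0.000123), although after correction for GC content and transcript length its log2 fold change went from 0.44 to 0.26 (DESeq2 adjusted p = 0.0395), and in the TPM fit without a filter on low values it failed to pass (limma adjusted p = 0.137). FOXD2 had means of 204 ± 23.0 and 234 ± 9.99 normalized counts (± SD of 3) and did not pass (DESeq2 adjusted p = 0.264; 95% limits of the fold 0.956 to 1.38). FOXD2-AS1, its divergent noncoding neighbour, was at 385 ± 38.8 and 391 ± 25.6 normalized counts, with a log2 fold change of 0.02 whose sign turned under 7 alternatives. In TPM the ratio of FOXD1 to FOXD3 was 0.710 to 1.02 across GFP libraries and 10.4 to 15.7 across T-MGM libraries. FOXD1 and FOXD3 were thus about equally abundant in GFP cells, and FOXD1 was the leading FOXD transcript in T-MGM cells.

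The FOXD4 group consists of near-identical copies, mostly on chromosome 9, for which uniquely aligned reads give uncertain counts. FOXD4 itself had raw counts of 7, 4 and 6 under GFP and 0, 1 and 1 under T-MGM. Scaled to library totals this was a ratio of 0.0859 with a 95% exact interval of 0.00962 to 0.362 over the summed counts, which covers counting error only. It was called lower by DESeq2 (adjusted p = 0.0431), but not by edgeR (adjusted p = 0.0972), nor without T-MGM replicate 1 (DESeq2 adjusted p = 0.127) or T-MGM replicate 2 (0.0726), and without any one of the other libraries DESeq2 gave it no adjusted p. FOXD4L5 had 19 counts in all under GFP and 7 under T-MGM, scaled to library totals a ratio of 0.269 (95% exact interval 0.0955 to 0.668). FOXD4L6 had 14 and 19 and FOXD4L1 had 8 and 8, and none of FOXD4L5, FOXD4L6 and FOXD4L1 passed. FOXD4L4, the only expressed copy, had 8.15 ± 5.25 and 12.6 ± 3.90 normalized counts (± SD of 3) with overlapping groups.

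FOXF2 and FOXC1 lie in a cluster with FOXQ1 on the short arm of chromosome 6, with 74.8 kb between FOXQ1 and FOXF2 and 214 kb between FOXF2 and FOXC1. FOXF2 (ENSG00000137273.5; chromosome 6, 1389576 to 1395603), a factor of mesenchyme and pericytes, had 42.0, 50.9 and 48.0 normalized counts under GFP and 194, 182 and 190 under T-MGM. The groups were well apart and each was tight. FOXF2 rose 4.02-fold (95% limits 3.06 to 5.29), a log2 fold change of 2.01 ± 0.20 (SE, n = 3 each; DESeq2 adjusted p = 3.76e-22). In TPM it was low in both groups, at 0.440 and 1.65 on average, and with 1 added to the TPM values the log2 fold change was 0.88. FOXC1 (ENSG00000054598.8; chromosome 6, 1609915 to 1613897), which acts in neural crest and eye development, had 1631, 1535 and 1638 normalized counts under GFP and 2211, 2289 and 2063 under T-MGM. It rose 1.37-fold (95% limits 1.28 to 1.46; DESeq2 adjusted p = 1.85e-19), and no library of one group lay within the other. FOXQ1 had 1 count over all 6 libraries. The 49 other genes measured within 10 Mb of FOXF2 had a median log2 fold change of 0.06. The ratio of FOXC1 to FOXF2 in TPM went from 17.7 to 20.9 across GFP libraries to 5.88 to 6.67 across T-MGM libraries, so the low member of the pair rose more.

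FOXF1 (ENSG00000103241.7; chromosome 16, 86510527 to 86515422), the paralogue of FOXF2 and a Hedgehog-responsive factor of lung and gut mesenchyme, lies in a second cluster with FOXC2 and FOXL1. It had 114, 103 and 68.5 normalized counts under GFP and 156, 166 and 162 under T-MGM, with GFP replicate 3 the lowest. It rose 1.70-fold (95% limits 1.31 to 2.20; DESeq2 adjusted p = 0.000255), while in the TPM fits it failed to pass (limma adjusted p = 0.0853 to 0.243). FOXC2 had 1 count and FOXL1 had 6 counts over all libraries, so FOXF1 alone of this cluster reached the threshold for expression. FENDRR, the noncoding gene beside FOXF1, and FOXCUT, beside FOXC1, had at most 6 and 10 counts in any library.

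FOXF and FOXD1 are known from stromal cells, and markers of fibroblasts were therefore examined. Of 5 such markers 4 were tested and 3 passed upwards, where 19.2% of all genes tested did (24.7% of protein-coding ones). LUM was at 304 ± 16.8 and 516 ± 29.4, PDGFRA at 54.9 ± 16.2 and 155 ± 1.91, and COL1A1 at 24.9 ± 6.15 and 58.5 ± 1.964 normalized counts under GFP and T-MGM (SD, n = 3 each). Summed over the list the level was 3.81 to 4.83 TPM under GFP and 5.34 to 6.69 TPM under T-MGM. COL3A1 was at 0 in every GFP library and had at most 2 counts in a T-MGM library. DCN had at most 10 counts and did not pass (log2 fold change 0.11, DESeq2 adjusted p = 0.939). PTPRC, the common leukocyte marker, had at most 2 counts. Of the immune list only CD68 was tested and passed, at 755 ± 34.7 and 1026 ± 121 normalized counts. Of 4 keratinocyte markers 1 was tested and of 4 endothelial markers 2, and none of these passed. Summed over the immune list the level was 10.03 to 11.5 TPM under GFP and 11.23 to 15.25 TPM under T-MGM, over the keratinocyte list 20.42 to 21.89 and 19.58 to 21.3 TPM, and over the endothelial list 0.22 to 0.36 and 0.18 to 0.28 TPM. The part of these markers in the forkhead results was not tested.

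**Figure D3:**
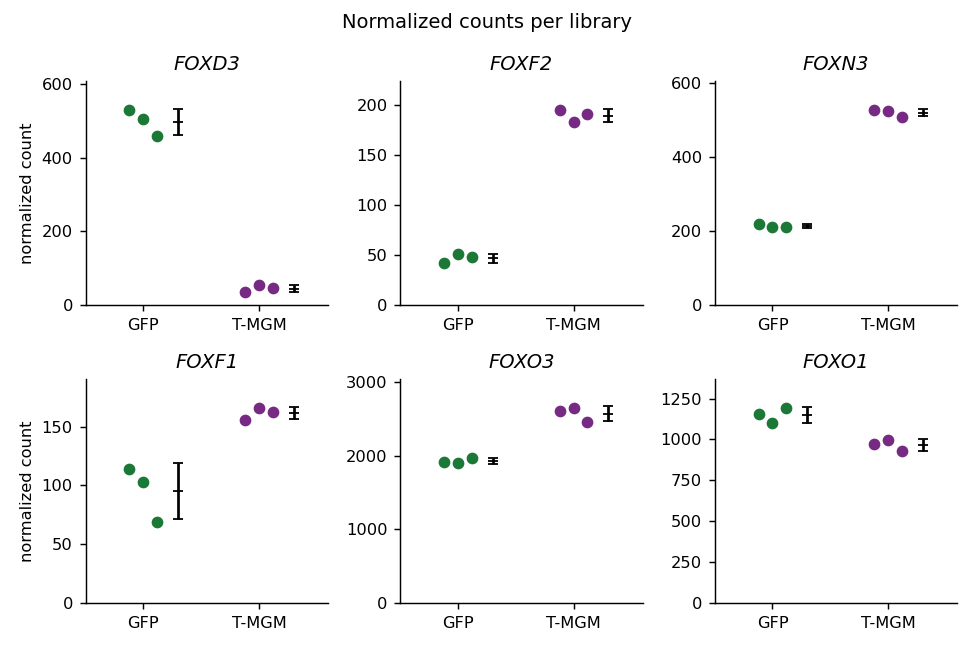
Normalized counts of 6 forkhead genes in each GFP (green) and T-MGM (purple) library, on linear axes from 0, with the mean and SD of each group (n = 3) in black beside the points. FOXD3 and FOXO1 are lower and FOXF2, FOXN3, FOXF1 and FOXO3 higher in every T-MGM library than in any GFP library.

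FOXN3 (ENSG00000053254.15; chromosome 14, 89124871 to 89619149) is a repressor first known from the control of the cell cycle after DNA damage. It had 219, 211 and 210 normalized counts under GFP and 525, 523 and 508 under T-MGM, the tightest groups of any called member. It rose 2.43-fold (95% limits 2.11 to 2.80), a log2 fold change of 1.28 ± 0.11 (SE, n = 3 each; DESeq2 adjusted p = 8.98e-33). The deposited TPM values were looser, at 0.95, 1.8 and 1.07 under GFP and 2.31, 3.18 and 1.8 under T-MGM, so that GFP replicate 2 and T-MGM replicate 3 met. Exons of FOXN3 overlap ENSG00000259053 on the same strand, and ENSG00000277801 and ENSG00000258752 on the opposite strand. The part of this overlap in the values was not tested. In the TPM fits FOXN3 was under 2-fold (0.59 to 0.90 on the log2 scale), and without a filter on low values it failed to pass (limma adjusted p = 0.154). FOXN2, its broadly expressed relative, moved the other way, from 5483, 5318 and 5419 to 4129, 4133 and 4371 normalized counts. FOXN2 fell by 0.36 in log2 units (0.03 SE; DESeq2 adjusted p = 8.66e-33), or by 0.18 after correction for GC content and length, with no overlap of the groups. FOXN4 had 7 counts in all.

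The FOXO factors, which AKT keeps out of the nucleus and which act in growth arrest, survival and stress, split. FOXO3 had 1917, 1900 and 1973 normalized counts under GFP and 2609, 2647 and 2451 under T-MGM, and rose 1.33-fold (95% limits 1.26 to 1.41; DESeq2 adjusted p = 3.28e-21). FOXO1 had 1158, 1098 and 1192 normalized counts under GFP and 973, 999 and 928 under T-MGM, and fell by 0.25 in log2 units (0.06 SE; DESeq2 adjusted p = 0.00012). Neither gene had overlapping groups. In TPM the ratio of FOXO3 to FOXO1 was 1.43 to 1.51 across GFP and 2.20 to 2.55 across T-MGM libraries. FOXO4 had 211 ± 9.51 and 161 ± 2.65 normalized counts (± SD of 3) and a log2 fold change of -0.39 ± 0.14 (SE, n = 3 each; DESeq2 adjusted p = 0.0169). It did not pass in edgeR (adjusted p = 0.0869), in the TPM fits, and in DESeq2 without GFP replicate 2 (0.0584), GFP replicate 3 (0.0880), T-MGM replicate 1 (0.0643) or T-MGM replicate 3 (0.0550). FOXO6 had 12 counts in all under GFP and 15 under T-MGM. FOXO3B, a near-identical copy of FOXO3 annotated as a pseudogene, had 124 ± 24.8 and 91.3 ± 18.9 normalized counts and did not pass (DESeq2 adjusted p = 0.1003), except without T-MGM replicate 3 (0.0341). Exons of FOXO3B overlap ZNF286B on the same strand, so part of the reads of one could have been counted for the other.

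FOXM1 (ENSG00000111206.12) had 11868, 12016 and 11983 normalized counts under GFP and 13459, 13802 and 13673 under T-MGM. The coefficient of variation was 0.649% under GFP and 1.27% under T-MGM, and the groups did not overlap. FOXM1 rose 1.14-fold (95% limits 1.11 to 1.17; DESeq2 adjusted p = 1.57e-24), but its log2 fold change of 0.19 was 0.10 after correction for GC content and length and 0.08 in the TPM fits, which failed to pass (limma adjusted p = 0.226 to 0.438). Over genes averaging 50 normalized counts or more, the median log2 fold change was at -0.13 to -0.15 in the TPM fits and at -0.01 in the reported one.

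All 3 expressed FOXP genes were higher under T-MGM. FOXP1, a repressor known from lymphocytes and neurons, had 715, 736 and 741 normalized counts under GFP and 1073, 1153 and 1005 under T-MGM. It rose 1.47-fold (95% limits 1.34 to 1.61; DESeq2 adjusted p = 3.41e-15), where the 41 other genes measured within 10 Mb had a median log2 fold change of 0.08. In the TPM fit without a filter it failed to pass (limma adjusted p = 0.103). FOXP4 went from 2291 ± 92.5 to 2779 ± 54.5 normalized counts (± SD of 3), a rise of 1.21-fold (95% limits 1.149 to 1.28; DESeq2 adjusted p = 1.31e-11), which did not hold in the TPM fits (limma adjusted p = 0.221 to 0.384) and fell from 0.28 to 0.12 on the log2 scale after correction for GC content and length. FOXP3, the factor of regulatory T cells, was low, with 33.6, 20.6 and 50.3 normalized counts under GFP and 60.2, 89.8 and 56.1 under T-MGM. The groups nearly met, and its 1.97-fold difference (DESeq2 adjusted p = 0.00906) did not pass without GFP replicate 2 (0.104) or T-MGM replicate 2 (0.129). Exons of FOXP3 overlap CCDC22 on the opposite strand. FOXP2, associated with speech, had 7 counts in all.

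FOXK1, FOXK2, FOXJ2 and FOXJ3 are broadly expressed and changed by little. FOXK1 and FOXK2, which recruit SIN3 and BAP1 complexes, had 4939 ± 107 and 7441 ± 113 normalized counts under GFP and 5048 ± 125 and 7002 ± 134 under T-MGM (SD, n = 3 each). FOXK2 was lower by 0.09 in log2 units (0.02 SE; DESeq2 adjusted p = 0.000764), and FOXK1, at 0.03, did not pass (0.452), with a sign that turned in 5 alternatives. FOXJ3 fell by 0.11 (SE 0.03, DESeq2 adjusted p = 4.96e-05) and did not pass after correction for GC content and length (-0.03, DESeq2 adjusted p = 0.335). FOXJ2, at 0.10, passed narrowly (DESeq2 adjusted p = 0.0441), passed in none of the 6 fits that left out one library (0.0534 to 0.201), and turned to -0.04 and -0.05 in the TPM fits. FOXJ1, the driver of motile cilia, had 1 count.

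**Figure D4:**
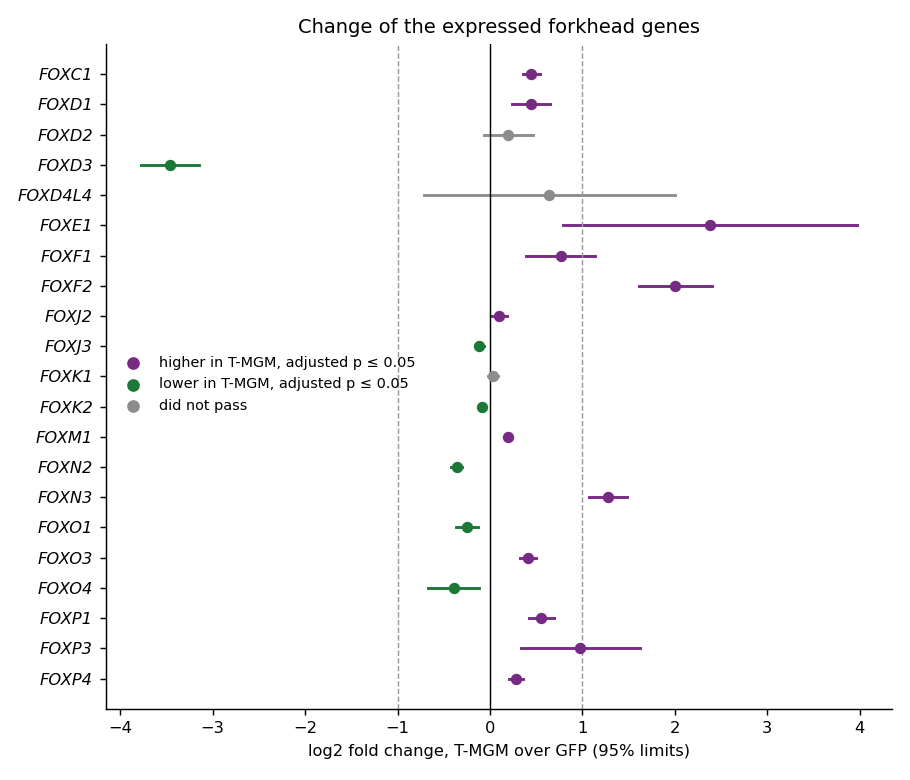
Log2 fold change of T-MGM over GFP with 95% limits for the 21 expressed forkhead genes (DESeq2, n = 3 per group), coloured by direction where the adjusted p was at or under 0.05 and grey where it was not. Dashed lines mark a 2-fold change, which FOXD3, FOXE1, FOXF2 and FOXN3 exceeded.

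Among the members with few counts, some differed in summed raw counts, for which the exact intervals cover counting error only and not the spread between libraries. FOXE1, a thyroid and hair follicle factor, had raw counts of 0, 7 and 2 under GFP and 12, 15 and 36 under T-MGM. Its fitted rise of 5.21-fold had wide limits (1.73 to 15.7; DESeq2 adjusted p = 0.0104) and did not pass without GFP replicate 1 (0.0676) or T-MGM replicate 3 (0.158). FOXA3, a liver and gut factor, had 3 counts under GFP and 17 under T-MGM, 11 of them in T-MGM replicate 3, a ratio in CPM of 4.14 (95% exact interval 1.20 to 22.02). FOXH1, a partner of SMAD proteins in NODAL signalling, had 11 and 37 counts, a ratio of 2.45 (1.23 to 5.33). Neither passed (DESeq2 adjusted p = 0.304 and 0.203). FOXA1, a factor of breast and prostate epithelium, had 7 counts under GFP and 1 under T-MGM, a ratio of 0.104 (95% exact interval 0.00231 to 0.811). Its groups met at 1 raw count and parted only in normalized counts, and DESeq2 gave it no adjusted p. FOXA2, FOXB1, FOXE3, FOXI1, FOXI2, FOXL2, FOXR2 and FOXS1 had at most 3 counts in any library, where 3 counts correspond to 0.0506 to 0.0856 CPM, and the exact interval of the ratio held 1 for each of them.

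Genes that act with the family were examined from lists written from general knowledge. Of 31 genes that control FOXO proteins, such as PI3K subunits, AKT kinases and their adapters, 25 passed, 7 higher and 18 lower, with none called over 2-fold and a median log2 fold change of -0.10. On TPM plus 0.1 or plus 1 the split was 1 higher and 17 lower, without the filter 1 and 16, and on total counts 4 and 19. The largest statistics belonged to MTOR at -0.41, YWHAZ, an adapter that holds phosphorylated FOXO in the cytoplasm, at -0.20, and INPP4B, a lipid phosphatase, at -0.37. Of 29 tested FOXO targets 15 passed, 9 higher and 6 lower (5 and 7 on TPM plus 0.1 or plus 1, 4 and 7 without the filter, and 9 and 9 on total counts), with a median of 0.04. They were led by BNIP3 (0.89), a mitophagy receptor that hypoxia also raises, CAT (0.64), the catalase gene, and MXI1 (-0.43), a MYC antagonist. Of 32 FOXM1 targets 19 passed, 9 higher and 10 lower, with a median of 0.02 and none over 2-fold. That split depended on the scaling, with 6 higher and 12 lower on total counts, 0 and 18 on TPM plus 0.1 or plus 1, and 0 and 15 on TPM plus 1 without the filter. Those with the largest statistics were lower, namely ASPM (-0.38), CENPF (-0.20) and AURKA (-0.31), which act at the spindle and centromere.

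Of 24 cofactors of forkhead proteins 14 passed, 4 higher and 10 lower (3 and 14 on TPM plus 0.1 or plus 1), with a median of -0.01 and SMAD3 (-0.56), CTBP2 (-0.34) and the export receptor XPO1 (-0.20) leading. Of 28 tested genes of the neural crest network to which FOXD3 belongs 21 passed, 14 higher and 7 lower, with a median of 0.06. NGFR (0.77), EDNRB (-0.72) and SOX6 (0.59) had the largest statistics. The 4 called over 2-fold in that list, named here after their values were seen, were all higher: NR2F1 at 2.42, ZIC1 at 2.03, ID1 at 1.06 and ID3 at 1.01 on the log2 scale. No gene of that list was called lower. Of all genes tested 3.26% were called higher and 1.36% lower (3.84% and 1.13% of protein-coding ones). On TPM plus 0.1 or plus 1 the neural crest genes that passed were 8 higher and 8 lower, and without the filter 6 higher and 7 lower, so the excess of higher genes was not kept on that scale. All lists were read against 38.4% of all genes tested passing and 4.63% called over 2-fold (49.4% and 4.97% of protein-coding ones). These shares are from the reported fit. Over genes averaging 50 normalized counts or more, the median log2 fold change was -0.06 on total counts and -0.13 to -0.15 on TPM. Splits of all genes by direction under those settings are not given here. Since highly expressed genes pass at smaller changes, the shares of the lists that passed (51.7% to 80.6%) are given as descriptions.

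**Figure D5:**
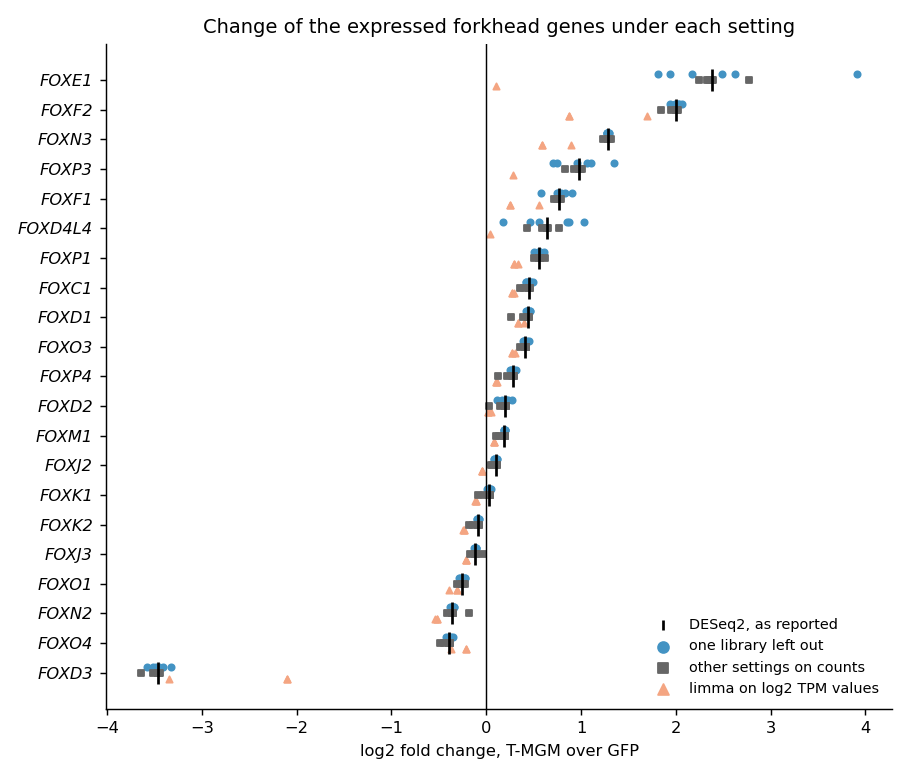
Log2 fold change of T-MGM over GFP of each expressed forkhead gene as reported (black bars) and under each alternative, with one library left out (blue), other settings on counts (grey) and limma on log2 TPM values (orange). FOXD3 stayed below -2 in all, and FOXE1 spread from 0.10 to 3.91.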

How the data were processed

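RNA-seq of WM164 cells was compared between 3 T-MGM and 3 GFP libraries. Per the study's methods and the submitters' processing notes, the authors trimmed reads with cutadapt 1.8.1, aligned them to GRCh38 with STAR 2.7.7a, and counted them with featureCounts (version not given in the sources used here), while RSEM 1.3.0 gave the TPM values. The deposited counts are raw read counts per gene, and the deposited TPM values are rounded to 2 decimals. The annotation release is not given in the sources used here. The labels name a kit without strand information and the study's methods a strand-specific one, so counts of overlapping genes on opposite strands are uncertain. Coordinates were taken from GENCODE 44 (GRCh38), in which 99.4% of gene identifiers and all 50 members were found.

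Counts of all 58870 genes were fitted with DESeq2 1.42.0 in R 4.3.3 (Wald test, median-of-ratios size factors, independent filtering at 0.05, unshrunken fold changes, Benjamini-Hochberg adjustment over all genes tested). DESeq2 was the main test because the study's methods used it. Called genes had an adjusted p of at most 0.05 and a change over 2-fold. The alternatives were edgeR 4.0.16, limma 3.58.1 on log2 TPM with 1 or 0.1 added, other filters and size factors, GC and length offsets, a replicate block, and each library left out in turn. Fold changes on the log2 TPM scale understate those of low genes. The DESeq2 and edgeR fits and limma on TPM plus 1 were tested on simulated data. The changes planted there were over 2-fold and in genes averaging 50 counts or more. Smaller changes and changes at low counts were not planted, and the other settings were not run. Of the expressed members each was named, and of each list the 3 genes with the largest statistics. The members and lists were chosen with earlier results of these data known. Intervals on summed counts are exact and cover counting error only. A count of 3 corresponds to 0.0506 to 0.0856 CPM. One member is counted in the totals and not reported by name here.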

Additional observations from a re-analysis of the deposited data

How the results depend on the processing

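FOXD3 passed and was lower under all 17 alternatives, with log2 fold changes from -3.64 to -2.11 (-3.58 to -3.32 with a library left out). The number of members at an adjusted p of 0.05 was 19 as reported, 15 to 16 with a library left out, 11 in limma on TPM plus 0.1 or plus 1, and 9 on TPM plus 1 without a filter. The number called over 2-fold was 5 as reported, 3 with 10 counts required in every library, 2 on TPM plus 0.1, 1 on TPM plus 1 with or without the filter, and 3 to 5 with a library left out. Over all genes the number called was 885 as reported and 493 with 10 counts required in every library. It was 369 on TPM plus 0.1, 133 on TPM plus 1, 126 without the filter, and 765 to 810 with a library left out. The number of expressed members was 36 when 1 count in 3 libraries was enough. Among neural crest genes 13 instead of 21 passed on TPM plus 1 without a filter. Among the forkhead-named genes that are no members 2 instead of 1 passed on TPM plus 1 or plus 0.1, and 1 to 2 with a library left out.

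Over the 21 expressed members and the alternatives that gave a value, 301 of 349 values kept their direction and side of the threshold, 40 were no longer past it and 8 turned in sign. FOXK1 (0.03 as reported) was at -0.091 after the correction for GC content and length, where it passed (DESeq2 adjusted p of 0.00334), at -0.12 on TPM plus 0.1, -0.11 on TPM plus 1 with or without the filter, and -0.023 with total counts as size factors. FOXJ2 (0.10) was at -0.048 (plus 0.1) and -0.044 (plus 1, with or without the filter) in the TPM fits. FOXD2-AS1 (0.02) was at -0.10 after the GC correction, -0.12 and -0.10 in the TPM fits, -0.031 with total counts, and -0.057 to 0.083 with a library left out. FOXP1-IT1 (0.11) was at -0.00098 on TPM plus 1 without a filter, and at -0.16 to 0.37 with a library left out, below 0 without GFP replicate 1 or T-MGM replicate 1. None of the turned values but that of FOXK1 passed.

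Same-numbered libraries did not deviate together (r of -0.0067, -0.058 and 0.029 over 12654 genes), so the numbers were not taken to pair samples. With a replicate block 16 members passed and 5 were called, FOXP3 (log2 fold change of 1.01) among them; FOXJ2 and FOXO4 no longer passed and FOXD4 had no adjusted p. The cause of these changes was not tested. Depth limits the members that were not expressed, most of which had no adjusted p.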
